A study of Mus musculus with 51 samples.

Results

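The data are the 6 pS6-IP-Seq libraries, of 51 in the series, whose labels name 10 mM (methylthio)methanethiol (MTMT) as the odorant. They comprise 3 libraries from mice given MTMT and 3 from mice given diluent, and were compared over all 1117 olfactory receptor (OR, *Olfr*) genes of the table. The mice were C57BL/6J littermates of both sexes and about 3 weeks old, with no transgene or deletion in either group. Each was kept in a paper container for 1 hr with 10 μL of stimulus on a blotting pad, MTMT in ethanol or the diluent alone, after 1 hr of habituation, and the tissue was whole olfactory mucosa. The labels number the replicates 1 to 3 in each group and do not say which mice were littermates or which diluent a control received. The libraries of 2 further experiments, 100 μM MTMT and cyclopentadecanone (CPD, a macrocyclic musk), were used where a comparison needed them. CPD mice and 100 μM mice each numbered 3, with 3 controls apiece, and the 100 μM controls also served (*E*)-β-farnesene and 2,5-DMP.

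MTMT is a sulfur volatile of male mouse urine that attracts female mice. Each mature olfactory sensory neuron (OSN) expresses a single gene of the large OR family, and an OSN that is driven by an odor phosphorylates the ribosomal protein S6. Immunoprecipitation with an antibody against phosphorylated S6 (pS6) therefore recovers relatively more ribosome-bound mRNA from active OSNs, so that the mRNA of an OR whose OSNs respond takes a larger share of the reads. Thiol receptors of the mouse include *Olfr1509* (MOR244-3), which responds to MTMT in cultured cells in the presence of copper. The tables hold OR genes only, so markers of OSNs and of other cells of the mucosa could not be examined, and more OSNs of a type cannot be told apart from more captured mRNA per OSN.

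OR genes have near-identical copies, and the sequences show how some of the receptors described below differ: *Olfr1295* with its neighbour, and receptors of both chromosome 11 clusters. Each line gives 60 bases of the coding strand, in GRCm38, around the 6 codons (capitals) of the conserved motif that ends the third transmembrane segment. The first pair lies in a chromosome 2 cluster, and the other receptors lie on chromosome 11.
Olfr1295 (chr2:111565053-111565112, minus strand): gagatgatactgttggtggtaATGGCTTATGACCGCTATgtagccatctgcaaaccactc
Olfr1294 (chr2:111537898-111537957, minus strand): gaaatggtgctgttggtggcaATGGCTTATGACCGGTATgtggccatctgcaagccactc
Olfr330 (chr11:58529583-58529642, minus strand): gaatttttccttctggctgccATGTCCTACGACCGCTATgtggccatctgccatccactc
Olfr224 (chr11:58566960-58567019, minus strand): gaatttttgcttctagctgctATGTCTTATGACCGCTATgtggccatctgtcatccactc
Olfr315 (chr11:58778459-58778518, plus strand): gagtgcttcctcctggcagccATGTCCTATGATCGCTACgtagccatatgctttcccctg
Olfr1396 (chr11:49113332-49113391, minus strand): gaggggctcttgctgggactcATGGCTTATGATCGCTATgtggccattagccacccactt
In this window *Olfr330* and *Olfr224* differed at 6 of 60 bases and *Olfr1295* and *Olfr1294* at 7, whereas *Olfr1295* and *Olfr330* differed at 17 and *Olfr1295* and *Olfr315* at 21. The motif was found in the single coding exon of 950 of the 1117 ORs (85.0%), including 35 of the 37 ORs described below as higher.

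OR genes received 51613, 70770 and 50304 reads in control replicates 1, 2 and 3, and 68472, 85158 and 91033 in MTMT replicates 1, 2 and 3. Pairs of control libraries differed by 5.22 to 5.6 times what counting noise gives (chi-squared per degree of freedom over ORs), and pairs of MTMT libraries by 19.9 to 28 times, so that no library was a copy of another. The pairs of MTMT libraries stood further apart than the pairs of controls, and they were also deeper. Shares below express a receptor's reads in percent of the OR total of the same library, without correction for transcript length. At these depths the 95% Wilson interval of *Olfr1295* ran from 0.0685% to 0.121% around 0.0911% in control replicate 1 and from 0.448% to 0.539% around 0.491% in MTMT replicate 3, for counting error only.

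The library labelled 10 mM MTMT replicate 1 stood apart from replicates 2 and 3, and this is given before any test because every comparison rests on it. The 37 ORs used for the check are those higher in MTMT replicates 2 and 3 than in the MTMT controls (below), and they were read against the 3 CPD controls, which had no part in choosing them. In MTMT replicate 1 the share was above all 3 CPD controls for 4 of these 37 ORs, against 234 of all 1043 tested ORs (22.4%). In the library labelled CPD replicate 2, in contrast, the share exceeded all 3 CPD controls for 34 of the 37, against 128 of 1043 (12.3%). CPD replicates 1 and 3 gave 8 and 18 of the 37, against 213 and 212 of the 1043. Apart from *Olfr541* and *Olfr1437*, which were not above the controls in both replicates 2 and 3, the remaining 35 ORs together took 3.03% of the OR reads in MTMT replicate 1, 19.6% in replicate 2 and 13.0% in replicate 3. The same 35 took 18.8% in the library labelled CPD replicate 2, 3.88% and 4.65% in CPD replicates 1 and 3, and 2.88% to 4.71% (median 3.89%) in the 21 control libraries of the series.

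Receptors for musk odorants were then read in the same libraries. Together, *Olfr235*, *Olfr1440*, *Olfr1431* and *Olfr1434* took 1.92% of the OR reads in the library labelled MTMT replicate 1, against 0.0916% and 0.136% in MTMT replicates 2 and 3. They took 2.74% in CPD replicate 1, 0.784% in CPD replicate 3 and 0.105% in the library labelled CPD replicate 2. *Olfr1437*, a further musk receptor, is not in this sum. It took 0.511%, 0.0740% and 6.29% in MTMT replicates 1, 2 and 3, and 0.721%, 0.103% and 0.0879% in CPD replicates 1, 2 and 3. With *Olfr1437* added, MTMT replicate 3 had the highest sum, 6.42%, against 2.43% in MTMT replicate 1. In 39 libraries of the other experiments the 4 musk receptors took 0.071% to 0.233%, and CPD control replicate 1 had 0.905%. The libraries labelled MTMT replicate 1 and CPD replicate 2 thus each had high shares of ORs that were high under the other label. *Olfr1437*, however, was highest in MTMT replicate 3. Whether labels, tubes or odors were exchanged was not tested, and the libraries are used under the labels they have. No OR passed the test with all 6 libraries, so every call below is of the fit without MTMT replicate 1.

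**Figure D1:**
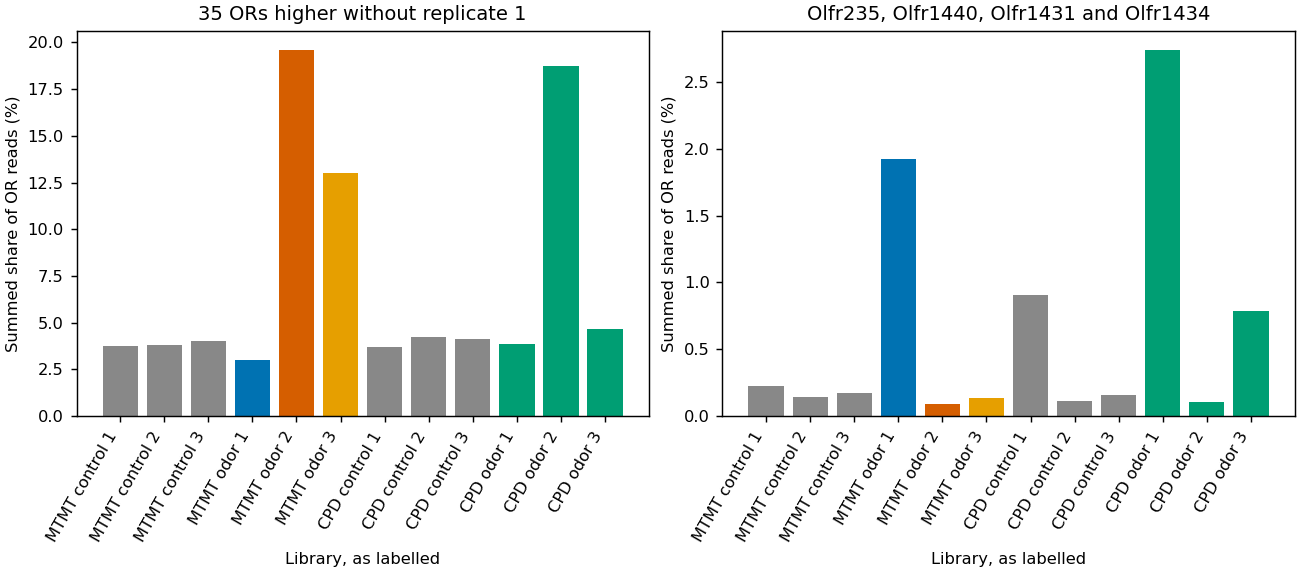
Summed share of OR reads (%) in each of the 12 libraries labelled 10 mM MTMT and CPD, for the 35 ORs higher in MTMT replicates 2 and 3 (left) and for 4 musk receptors without *Olfr1437* (right), with 1 bar per library and controls in grey. The 35 ORs stood at 19.6% and 13.0% in MTMT replicates 2 and 3 and at 18.8% in the library labelled CPD replicate 2. MTMT replicate 1 had 3.03% for the 35 ORs and 1.92% for the 4 musk receptors.

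With all 6 libraries, no OR passed the test for a difference between MTMT and diluent. Of 1054 ORs with at least 10 reads, 0 were higher and 0 lower at an adjusted p below 0.05 (edgeR quasi-likelihood test, 0% called higher), the smallest adjusted p was 0.453, and 69 had an unadjusted p below 0.05, of which 56 were higher and 13 lower. DESeq2 called 15 ORs higher and 0 lower on the same libraries, and edgeR's likelihood ratio and exact tests called 5 and 0 each; these 15 and 5 ORs were all among the 37 named below. On the scale of shares, all 3 MTMT libraries were above all 3 controls for 8 of the 1054 ORs (0.759%), among them *Olfr1220* and *Olfr1193* of the 37, and below all 3 for 142. The median log2 fold change of all ORs was -0.28 on library totals, the scale of the shares, and 0.03 after the TMM scaling used for the tests.

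*Olfr1295*, a chromosome 2 receptor that was followed across sexes and odors, showed the split between replicates. Its share was 0.0911%, 0.146% and 0.169% in control replicates 1, 2 and 3 and 0.0876%, 0.424% and 0.491% in MTMT replicates 1, 2 and 3. MTMT replicate 1 was below every control, and replicates 2 and 3 were above every control and above the highest of the 21 control libraries (0.169%). Over all 6 libraries the log2 fold change was 1.74 (SE 0.60, n = 3 and 3, edgeR adjusted p = 0.48), and an exact permutation test of the log2 shares gave p = 0.4, two-sided, where 3 mice against 3 allow no p below 0.1. Without MTMT replicate 1 it was 2.21 (SE 0.31, n = 2 and 3, edgeR adjusted p = 0.00248).

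Without MTMT replicate 1, 37 of 1043 ORs were higher (3.55%) and 1 was lower (0.0959%) in edgeR's quasi-likelihood test, with log2 fold changes of the 37 from 1.23 to 6.25 (median 2.30) beside a median of -0.01 over all 1043. The count was 20 on library totals, 12 without control replicate 1 as well, 21 without control replicate 3 as well, and 0 with the replicate number as a block over replicates 2 and 3 of both groups. In 35 of the 37 both remaining MTMT libraries were above all 3 controls, and the other 2 were *Olfr541* and *Olfr1437*. Over the 1054 ORs tested with all 6 libraries, both were above all 3 controls for 49. The 37 were chosen on these libraries, so this count and the fold values below only describe them. MTMT replicate 2 was higher than replicate 3 in 28 of the 37. Relative to the control mean, the share of these ORs was at a median of 4.09-fold in replicate 2 and 2.94-fold in replicate 3, and of 0.871-fold in replicate 1. In replicate 1 the share was above all 3 CPD controls for 4 of the 37 (10.8%), against 234 of all 1043 (22.4%). Among the 20 with the smallest adjusted p, replicate 1 lay within the range of the 10 mM controls for 10, below it for 9 and above it for *Olfr1220*. The count of 28 and those of the leading 20 were not set beside all tested ORs, so they describe these ORs only. Replicate 1 was left out with its values known, so these p-values describe 5 libraries and do not replace the test of all 6.

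**Figure D2:**
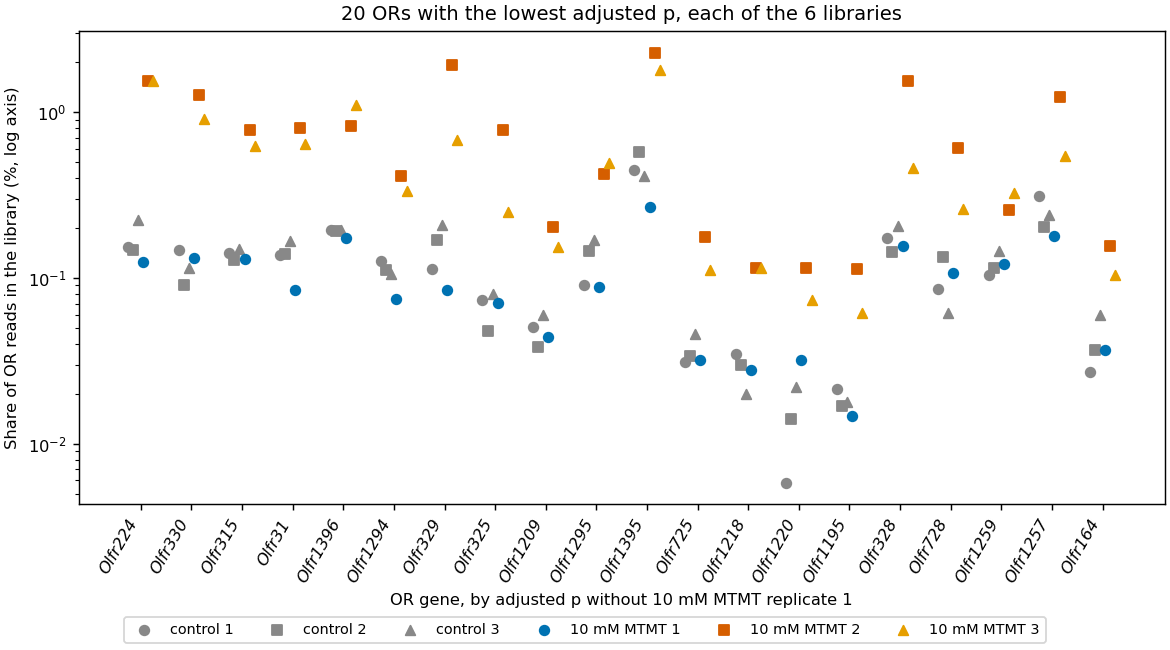
Share of OR reads (%, log axis) of the 20 ORs with the smallest adjusted p without MTMT replicate 1, in each of the 6 libraries (grey, 3 controls; colours, 3 MTMT libraries), 1 point per library and no averaging. For each of these ORs MTMT replicates 2 and 3 lie above the 3 controls, and MTMT replicate 1 lies among or below them except for *Olfr1220*.

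Chromosome 11 held 9 of the 37 ORs. *Olfr330*, *Olfr329*, *Olfr328*, *Olfr224* and *Olfr325* are 5 consecutive OR genes, and all were higher without MTMT replicate 1. *Olfr330* had 0.147%, 0.0904% and 0.115% in the controls and 0.131%, 1.27% and 0.914% in MTMT replicates 1, 2 and 3, a log2 fold change of 3.15 over all 6 libraries (adjusted p = 0.453) and of 3.66 (SE 0.35, adjusted p = 0.000371) without replicate 1. *Olfr224* had 0.153%, 0.147% and 0.223% in the controls and 0.124%, 1.55% and 1.54% after MTMT, with 3.60 (SE 0.34) without replicate 1 and 3.07 with it. The levels of this receptor in replicates 2 and 3 were alike, whereas its 3 neighbours *Olfr329*, *Olfr328* and *Olfr325* were 2.83, 3.35 and 3.13 times higher in replicate 2 than in replicate 3. *Olfr329* had 0.112%, 0.17% and 0.209% in the controls and 0.0847%, 1.92% and 0.679% after MTMT. *Olfr328* had 0.174%, 0.144% and 0.205% in the controls and 0.155%, 1.53% and 0.457% after MTMT. *Olfr325* had 0.0736%, 0.048% and 0.0795% in the controls and 0.0701%, 0.784% and 0.25% after MTMT. All 3 kept apart from the controls in replicates 2 and 3 and stayed at or below the highest control in replicate 1. Coding sequences of these receptors are 90.3% to 93.1% identical to that of *Olfr330*, and 13.1% to 29.6% of their 50-base stretches occur in another OR, so the division of reads between them is uncertain.

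Further along the cluster, *Olfr315* had 0.141%, 0.129% and 0.149% in the controls and 0.13%, 0.774% and 0.623% after MTMT. Its log2 fold change was 2.77 (SE 0.28, adjusted p = 0.000487) without replicate 1 and 2.29 (adjusted p = 0.453) with it, and none of its 50-base stretches occurs in another OR. Its neighbour *Olfr314* was high mainly in replicate 2, at 0.568% against 0.132% in replicate 3, 0.057% in replicate 1 and 0.0291% to 0.111% in the controls. The cluster, chr11:58454105-59615060 in GRCm38, held 23 tested ORs, of which 7 were higher without replicate 1 (30.4%, against 3.55% of all), and 6 of these were among the 14 members of *Olfr314* to *Olfr330*. The median log2 fold change of those 14 was 0.55 without replicate 1 and 0.30 with it, the other 8 had values from -0.25 to 0.56, and none of them passed the test.

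A second chromosome 11 cluster held *Olfr1396* and *Olfr1395*. *Olfr1396* had the most even controls, 0.194%, 0.191% and 0.195%, and 0.174%, 0.82% and 1.1% after MTMT, with a log2 fold change of 2.76 (SE 0.30, adjusted p = 0.000612) without replicate 1 and 2.28 (adjusted p = 0.453) with it. *Olfr1395* took the largest share of reads among the 20 leading ORs, with 0.45%, 0.578% and 0.413% in the controls and 0.266%, 2.28% and 1.78% after MTMT. Replicate 1 was below all 3 controls for both receptors. Their coding sequences are 67.1% identical, and few of the 50-base stretches of *Olfr1396* (0.277%) and none of those of *Olfr1395* occur in another OR. The annotated gene span of *Olfr56* covers *Olfr1396*, and the libraries carry no strand, but *Olfr56* had 0.271%, 0.155% and 0.203% in the controls and 0.181%, 0.248% and 0.194% after MTMT, which overlap.

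On chromosome 2, a cluster at chr2:111230360-112159157 held *Olfr1295* and 6 further ORs that were higher without replicate 1, among 35 tested (20%, against 3.55% over all ORs). The median log2 fold change of the 35 was 0.66 without replicate 1 and 0.53 with it. *Olfr1294*, which lies beside *Olfr1295* and is 87.5% identical to it, had 0.126%, 0.112% and 0.105% in the controls and 0.0745%, 0.409% and 0.336% after MTMT. Its log2 fold change was 2.15 (SE 0.27, adjusted p = 0.00181) without replicate 1 and 1.67 (adjusted p = 0.478) with it. *Olfr1297* had 0.116%, 0.0579% and 0.123% in the controls and 0.0438%, 0.211% and 0.277% after MTMT. These 3 neighbours share under 1% of their 50-base stretches with other ORs, so that each had reads of its own. *Olfr1299*, *Olfr1302*, *Olfr1317* and *Olfr1318* were also higher without replicate 1, with log2 fold changes of 1.60, 1.78, 1.61 and 2.53, and were at 1.25, 1.34, 1.15 and 2.07 with it. *Olfr1317* and *Olfr1318* are 96.25% identical. Of their 50-base stretches, 21.1% and 11.8% occur in another OR, so their reads cannot be assigned with certainty.

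The large chromosome 2 cluster at chr2:85330779-90403897 held 10 higher ORs among 206 tested without replicate 1, a share of 4.85% that is near the 3.55% over all ORs. The median log2 fold change there was 0.00, and 0.01 with all 6 libraries. *Olfr1220* had 0.00581%, 0.0141% and 0.0219% in the controls and 0.0321%, 0.115% and 0.0736% after MTMT, so that all 3 MTMT libraries were above these 3 controls. Its 21 control libraries in the series ran from 0.00581% to 0.0659% (median 0.0219%). MTMT replicate 1, with 22 reads, lay within that range, and replicates 2 and 3 lay above it. The log2 fold change of *Olfr1220* was 2.80 over all 6 libraries (edgeR adjusted p = 0.453) and 3.19 (SE 0.47, adjusted p = 0.00308) without replicate 1. The exact permutation test of its log2 shares gave the smallest possible p of 0.1, which follows from that separation and adds nothing to it. *Olfr1209* had 0.0504%, 0.0382% and 0.0596% in the controls and 0.0438%, 0.202% and 0.154% after MTMT. *Olfr1218* had 0.0349%, 0.0297% and 0.0199% in the controls and 0.0278%, 0.114% and 0.114% after MTMT, and *Olfr1195* 0.0213%, 0.017% and 0.0179% and then 0.0146%, 0.113% and 0.0615%. In these 3 receptors replicate 1 lay within or below the controls. Of 29 ORs from *Olfr1183* to *Olfr1220*, 7 were higher without replicate 1 (3.55% over all ORs), 0 were lower and the median log2 fold change was 0.31; with all 6 libraries 0 passed and the median was 0.30. *Olfr1206* had 0.0756%, 0.0396% and 0.0616% in the controls and 0.0497%, 0.262% and 0.102% after MTMT, and *Olfr1199* 0.031%, 0.0269% and 0.0139% and then 0.0175%, 0.106% and 0.0703%. *Olfr1193* had the smallest change of the 37, from 0.118%, 0.12% and 0.111% in the controls to 0.134%, 0.235% and 0.167% after MTMT, and 17.7% of its 50-base stretches occur in another OR. *Olfr1257*, further along, reached 1.23% and 0.539% in replicates 2 and 3 from 0.202% to 0.31% in the controls and 0.18% in replicate 1, and *Olfr1259* reached 0.255% and 0.325% from 0.105% to 0.145% and 0.121%. *Olfr1265* reached 0.121% and 0.0923% from 0.0254% to 0.0537% and 0.0248%.

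Chromosome 14 held 6 of the 37 ORs. *Olfr31*, next to *Olfr720* in a pair of OR genes, had 0.138%, 0.139% and 0.167% in the controls and 0.0847%, 0.807% and 0.638% after MTMT, with a log2 fold change of 2.74 (SE 0.29, adjusted p = 0.000487) without replicate 1 and 2.22 with it. Its neighbour had 0.118%, 0.126% and 0.155% in the controls and 0.0789%, 0.356% and 0.226% after MTMT, and 1 control library of another experiment had 0.568%. *Olfr728* had 0.0853%, 0.134% and 0.0616% in the controls and 0.107%, 0.605% and 0.259% after MTMT. *Olfr725* had 0.031%, 0.0339% and 0.0457% in the controls and 0.0321%, 0.176% and 0.111% after MTMT, and 24.4% of its 50-base stretches occur in another OR. Replicate 1 lay within the controls for *Olfr728* and *Olfr725* and below them for *Olfr31*. *Olfr723* and *Olfr724* were also higher without replicate 1, at 1.69 and 2.22 (1.33 and 1.71 with it), but 54.8% and 51.1% of their 50-base stretches occur in another OR and their reads cannot be assigned with certainty. On chromosome 16, *Olfr164* had 0.0271%, 0.0367% and 0.0596% in the controls and 0.0365%, 0.155% and 0.104% after MTMT, and its neighbour *Olfr165* 0.0659%, 0.0579% and 0.0239% and then 0.0205%, 0.153% and 0.104%. Their log2 fold changes without replicate 1 were 2.11 (SE 0.37, adjusted p = 0.00963) and 1.80 (SE 0.42, adjusted p = 0.042), and 1.68 and 1.31 (adjusted p = 0.453 and 0.877) with it. On chromosome 7, *Olfr527* rose from 0.401%, 0.362% and 0.372% in the controls to 0.982% and 0.587% in replicates 2 and 3, with 0.352% in replicate 1, a log2 fold change of 1.49 (SE 0.32, adjusted p = 0.0273) without that library and of 1.145 (adjusted p = 0.581) with it.

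**Figure D3:**
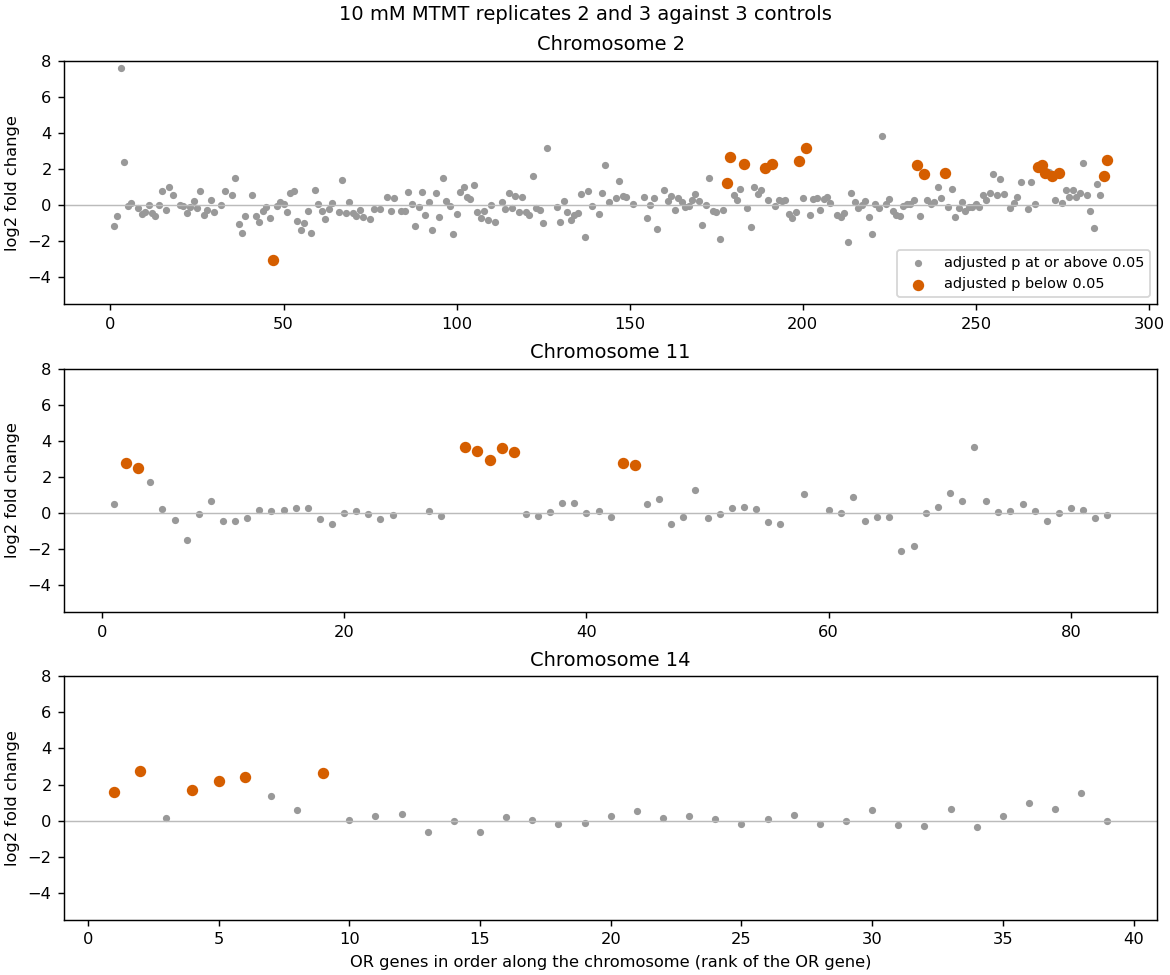
Log2 fold change of each tested OR in MTMT replicates 2 and 3 against the 3 controls, in the order of the OR genes along chromosomes 2, 11 and 14 (1 point per OR; orange, adjusted p below 0.05). The 17 higher ORs of chromosome 2, the 9 of chromosome 11 and the 6 of chromosome 14 are shown, of which 10 on chromosome 2 have no other of the 37 beside them, and the orange point below 0 is *Olfr1016*.

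In all, 32 of the 37 ORs (86.5%) lay on chromosomes 2, 11 and 14, which hold 383 of the 1043 tested ORs (36.7%). These 3 chromosomes were picked because they held the most of the 37, so this contrast is only a description. By chromosome, 17 of 266 tested ORs were higher on chromosome 2 (6.39%), 9 of 78 on chromosome 11 (11.5%) and 6 of 39 on chromosome 14 (15.4%). On chromosome 16 it was 2 of 37 tested ORs (5.41%), beside 3.55% over all chromosomes. Another of the 37 was the OR gene next to 23 of them (62.2%), against 58 of all 1043 (5.56%), and 20 (54.1%) had another of the 37 as their most similar OR by coding sequence. Over all 1042 tested ORs with a coding sequence, the most similar OR was among the 37 for 41 (3.93%). The identity of the 37 to their most similar OR had a median of 91.5%. Of the 37, 21 shared under 5% of their 50-base stretches with other ORs and 13 over 10%.

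*Olfr541* and *Olfr1437* took most of their reads in MTMT replicate 3, and *Olfr1437* was also above the controls in replicate 1. *Olfr541*, a chromosome 7 receptor, took 9.79% of the OR reads there (95% Wilson interval 9.60% to 9.98%) against 0.257% and 0.124% in MTMT replicates 1 and 2, 0.19%, 0.187% and 0.145% in the controls and 0.0983% to 0.275% in the other 50 libraries of the series. *Olfr1437*, a chromosome 19 receptor for musk odorants, took 6.29% in replicate 3, 0.0740% in replicate 2 and 0.511% in replicate 1, against 0.0814%, 0.0452% and 0.0457% in the controls. Together this pair made up 16.1% of the OR reads of replicate 3. With all 6 libraries their log2 fold changes were 4.74 and 5.75 (adjusted p = 0.453 each). Both passed the test without replicate 1, with log2 fold changes of 5.29 (SE 1.20, adjusted p = 0.0348) and 6.25 (SE 1.27, adjusted p = 0.0217), on the strength of 1 library: with replicate 3 also left out, *Olfr541* was at -0.06 (SE 0.39, adjusted p = 0.988) and *Olfr1437* at 0.79. Of the 50-base stretches of *Olfr541* and *Olfr1437*, 10.85% and 10.06% occur in another OR. The reason for the high reads of this pair was not tested.

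*Olfr235*, also a musk receptor, had 0.0949%, 0.0311% and 0.0418% in the controls and 0.903%, 0.0282% and 0.0286% after MTMT, and *Olfr1440* had 0.0911%, 0.0735% and 0.0835% in the controls and 0.729%, 0.0411% and 0.0472% after MTMT. On the scale of shares, replicate 1 was thus above every control for both, and replicates 2 and 3 below every control. The median log2 fold change of all ORs on that scale was -0.46 without replicate 1, so lower shares there were common among ORs. Over all 6 libraries the log2 fold changes in edgeR's test were 2.62 and 1.85 (adjusted p = 0.738 and 0.791). Without replicate 1 they were -0.52 and -0.45 (adjusted p = 0.91 and 0.89). *Olfr910* and *Olfr912*, the other receptors that were followed across sexes, had log2 fold changes of -0.24 and -0.40 over all 6 libraries and of -0.35 and -0.60 without replicate 1, and neither passed the test. The thiol receptors *Olfr1507*, *Olfr1508* and *Olfr1509* of the MOR244 family had values of 1.18, 0.36 and 0.66 with all 6 libraries and of 1.56, 0.65 and 0.95 without replicate 1, and 0 of 3 passed in either (adjusted p = 0.1 for *Olfr1507* without replicate 1). *Olfr1509* had 0.145%, 0.189% and 0.274% in the controls and 0.165%, 0.368% and 0.205% after MTMT, which overlap.

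Of the ORs over 2% of the OR reads in any library, *Olfr140*, *Olfr536* and *Olfr743* had overlapping shares. *Olfr140* ranged from 1.72% to 3.76% in the controls and from 1.14% to 2.71% after MTMT, and *Olfr536* from 1.61% to 2.15% and from 1.41% to 2.61%. *Olfr743* ranged from 0.684% to 1.41% and from 0.727% to 2.27%. None of the 3 passed the test in either fit.

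After TMM scaling, 1 OR passed the test as lower, without replicate 1. This was *Olfr1016*, a chromosome 2 receptor, which had 0.0504%, 0.0283% and 0.0418% in the controls and 0.019%, 0.0047% and 0.0022% in MTMT replicates 1, 2 and 3, all below these 3 controls. Its 21 control libraries in the series ran from 0.00909% to 0.0504% (median 0.0184%). MTMT replicate 1 lay within that range, and replicates 2 and 3 lay below it. The log2 fold change of *Olfr1016* was -1.999 over all 6 libraries (adjusted p = 0.453) and -3.04 (SE 0.69, adjusted p = 0.0348) without replicate 1. It rests on few reads, 13 in replicate 1, 4 in replicate 2 and 2 in replicate 3. *Olfr982*, *Olfr141*, *Olfr157* and *Olfr23* were the other ORs with the lowest p over all 6 libraries among those with a negative value, at log2 fold changes of -1.16, -1.83, -1.26 and -1.58 (adjusted p = 0.453 each), and none of them passed without replicate 1.

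The concentration of MTMT was compared with that of a separate experiment, in which 3 mice given 100 μM MTMT and 3 controls had their own libraries, with other title prefixes and depths of 62538 to 124921 OR reads. At 100 μM, 3 of 1068 ORs were higher (0.281%) and 0 lower in edgeR's quasi-likelihood test: *Olfr1295* at 1.69 (SE 0.26, adjusted p = 0.00204), *Olfr165* at 1.57 (SE 0.28, adjusted p = 0.00711) and *Olfr56* at 1.21 (SE 0.24, adjusted p = 0.0172). *Olfr1295* had 0.0832%, 0.0761% and 0.0826% in these controls and 0.202%, 0.358% and 0.228% after 100 μM MTMT, with no overlap. *Olfr56* had 0.13%, 0.203% and 0.143% in these controls and 0.377%, 0.385% and 0.357% after 100 μM MTMT. With all libraries of both concentrations, 0 ORs differed between the fold changes at 10 mM and 100 μM, and 68 had an unadjusted p below 0.05; DESeq2 also called 0.

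Without 10 mM replicate 1, 29 of 1081 ORs had a larger fold change at 10 mM (2.68%) and 0 a smaller one. *Olfr330* had 0.179%, 0.209% and 0.165% after 100 μM MTMT, and its log2 fold change was 3.14 larger at 10 mM (SE 0.42, edgeR adjusted p = 0.000143). *Olfr1396*, with 0.127%, 0.189% and 0.161% after 100 μM, differed by 2.68 (SE 0.39, adjusted p = 0.000259), and *Olfr31* by 2.35 (SE 0.38, adjusted p = 0.00082). *Olfr224* lay between, with 0.391%, 0.799% and 0.528% after 100 μM, a value of 1.29 there (adjusted p = 0.0738) and a difference of 2.27 (SE 0.47, adjusted p = 0.00568). For *Olfr1295* the difference was 0.49 (95% interval -0.36 to 1.34, adjusted p = 0.935), for *Olfr165* 0.20 (-0.82 to 1.21, adjusted p = 0.974) and for *Olfr56* -0.73 (-1.54 to 0.09, adjusted p = 0.745), so that a difference in either direction lies within each interval. *Olfr1394* and *Olfr288* passed here with differences of 2.32 and 1.66, and *Olfr401* and *Olfr53* with 3.76 and 2.83. Of the 10 mM libraries in this fit, the last pair, like *Olfr541* and *Olfr1437*, was high in replicate 3 and not in replicate 2, at 0.236% and 0.9% against 0.00705% and 0.0564% in replicate 2. *Olfr53* is the OR most similar to *Olfr541* by coding sequence (91.88% identical), so the division of reads between these 2 is uncertain. Of the 37 ORs, 25 had a positive log2 fold change at 100 μM (range -0.77 to 1.69, median 0.20), beside 517 of all 1068 with a median of -0.01, and 2 passed the test. Concentration, experiment and diluent of the shared controls cannot be told apart in this comparison.

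**Figure D4:**
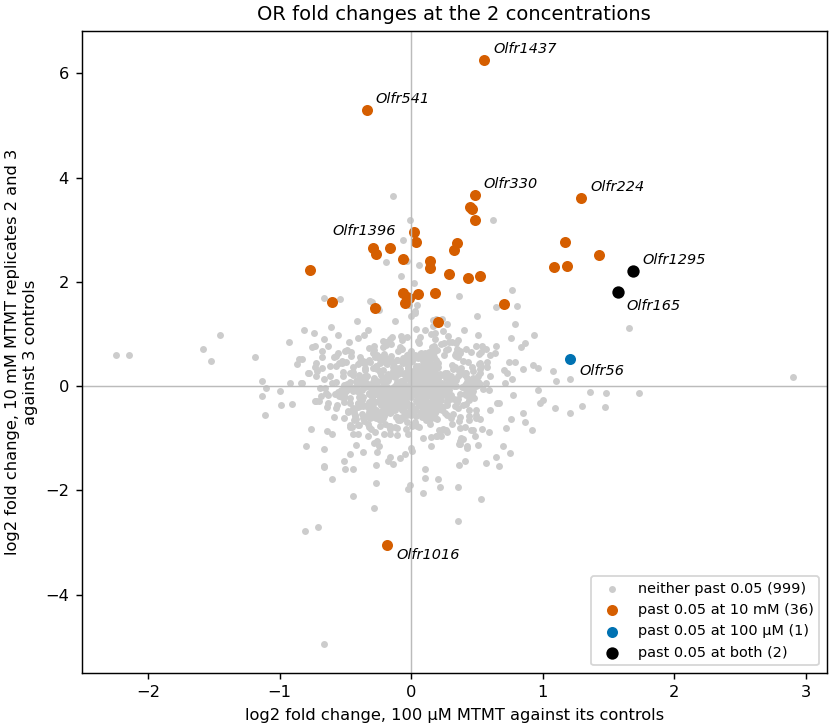
Log2 fold change at 100 μM MTMT (x axis, 3 mice against 3) and in 10 mM MTMT replicates 2 and 3 against 3 controls (y axis), 1 point per OR tested in both, coloured by which fit had an adjusted p below 0.05. *Olfr1295* and *Olfr165* passed at both, at 1.69 and 1.57 for 100 μM and 2.21 and 1.80 for 10 mM, and *Olfr330* stood at 0.48 and 3.66.

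Title prefixes divide the libraries: replicates 1 and 2 of both groups share 1 prefix and replicate 3 of both groups another, which the labels do not explain. The leading ORs were chosen on these libraries, so values within a prefix are a description only. For *Olfr1295* the log2 ratio of mean shares was 1.11 within the first prefix, where it was 1.84 for MTMT replicate 2 alone over control replicates 1 and 2, and 1.54 within the second. For *Olfr330* the ratio was 2.56 within the first prefix, 3.42 for replicate 2 alone, and 2.99 within the second. The library labelled CPD replicate 2 carries the first prefix too. In the CPD experiment itself, 0 of the ORs passed with all 6 libraries (smallest adjusted p 0.993), and without the library labelled CPD replicate 2 1 OR of 1041 was higher (0.0961%), *Olfr1437*, at 3.34 (adjusted p = 0.0157).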

How the data were processed

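Whole olfactory mucosa was processed by pS6 immunoprecipitation, SMART-Seq v4 and Nextera XT, with single reads and no strand information. Alignment (STAR, to GRCm38) and estimation of expected counts per gene (RSEM) were done by the authors. The deposited expected counts are whole numbers, not normalized, and cover 1117 intact OR genes, so library totals are OR totals. The authors' own log2 fold changes, p-values and FDR beside them were not used, nor were 6 per-sample columns that match no sample of the labels.

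The groups were tested by edgeR's quasi-likelihood method (version 4.0.16, under R 4.3.3), with TMM scaling on the OR counts, a minimum of 10 reads summed across the libraries of a comparison and Benjamini-Hochberg adjustment over all ORs tested (threshold 0.05). The standard error was the log2 fold change divided by the square root of F, and 95% intervals of dose differences used the test's degrees of freedom. The dose difference was the contrast of both fold changes in a fit of group means, each taken against the controls of its own experiment. Exact permutation tests used log2 reads per 100000 OR reads plus 5. Alternatives were DESeq2 1.42.0, limma 3.58.1 library weights, other scalings, filters and tests, added CPD controls, a fit of all 51 libraries, blocks, and each library left out. Scripts were tested on simulated data.

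Named ORs are those the study names for these odors, the 10 higher and 5 lower with the lowest p with all 6 libraries, the 20 higher and 5 lower with the lowest adjusted p without MTMT replicate 1, listed OR families and ORs over 2% of OR reads; others are named where a count of 5 or fewer turned on them. The members and lists were chosen with earlier results of these data known. Alternatives to the fit without replicate 1 were added after seeing the data. The labels do not say that replicates are separate mice beyond their numbers, and p-values measure the spread between these samples. Positions and sequences came from GENCODE M21 and GRCm38; a cluster is a run of ORs with gaps of at most 1 Mb.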

Additional observations from a re-analysis of the deposited data

Results flagged for a closer look

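The difference in fold change between 10 mM and 100 μM MTMT passed the test, once 10 mM replicate 1 was left out, for 29 ORs, and the 5 with the lowest p were *Olfr330* (3.14 on the log2 scale), *Olfr1396* (2.68), *Olfr31* (2.35), *Olfr328* (2.89) and *Olfr325* (2.90). With all libraries of both experiments none of them passed.

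A signal lay in a library outside the comparison. In the library labelled CPD replicate 2, the ORs leading after 10 mM MTMT were above the highest of the 21 control libraries: *Olfr224* at 1.26% of the OR reads, *Olfr330* at 1.75% (95% Wilson interval 1.68% to 1.82%), *Olfr315* at 0.467%, *Olfr31* at 0.692%, *Olfr1396* at 1.25% and *Olfr1295* at 0.432%. The highest control had 0.336%, 0.229%, 0.296%, 0.254%, 0.312% and 0.169% of these ORs, in the same order.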

How the results depend on the processing

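With all 6 libraries, the count of 0 higher ORs became 15 with DESeq2, 5 with the likelihood ratio test, 5 with the exact test, 27 with the CPD controls added and 27 in the fit of all 51 libraries, and 24 and 21 of these last were among the 37; the count of 0 lower ORs became 1 and 2 in those last settings. It stayed at 0 with library weights, the robust fit, library totals, RLE factors, either read filter, the title prefix as a block and the replicate number as a block (0 higher, 0 lower, 55 at an unadjusted p below 0.05). Leaving out 1 library gave 0 to 37 higher and 0 to 1 lower ORs, the upper values without MTMT replicate 1. *Olfr1295* was at 1.86 (adjusted p = 0.0179) with the CPD controls added, 1.69 (adjusted p = 0.0245) in the fit of all 51 libraries, 1.40 with the replicate block, and 1.31 to 2.21 with 1 library left out; its adjusted p over the settings ran from 0.00248 to 0.968. The count of dose differences was 0 in the main setting and 0 with the replicate block, 2 in the fit of all 51 libraries, and 0 to 29 with 1 library left out.

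Without MTMT replicate 1, the 37 became 20 on library totals, which shift the median of all ORs from -0.01 to -0.46, and 0 with the replicate block on replicates 2 and 3 of both groups (77 at an unadjusted p below 0.05). Leaving out a further library gave 12 to 35: 12 without control replicate 1, 21 without control replicate 3, and 35 without MTMT replicate 2 or 3, where the lone MTMT library was assumed to vary like the controls. Over the 13 settings other than the block, 11 ORs passed in each: *Olfr1209*, *Olfr1218*, *Olfr1220*, *Olfr1294*, *Olfr1295*, *Olfr1396*, *Olfr224*, *Olfr31*, *Olfr315*, *Olfr330* and *Olfr725*. *Olfr541* changed sign to -0.059 without MTMT replicate 3, against 6.275 without MTMT replicate 2. Equal replicate numbers were not taken as pairs, since the labels do not say which mice were littermates. Deviations from the group means correlated at 0.0988, 0.0687 and 0.0983 for numbers 1, 2 and 3. Such values cannot decide whether the numbers mark pairs. At 50304 to 91033 OR reads, ORs with a few reads, such as *Olfr1016*, have wide counting error. The causes of these changes were not tested.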
